A study of Mus musculus with 6 samples.

Results

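The Id genes (inhibitor of DNA binding) encode 4 small helix-loop-helix proteins, Id1, Id2, Id3 and Id4. They pair with basic helix-loop-helix transcription factors, above all the E proteins, but lack the basic region that touches DNA, so the pair cannot bind its target sites. Bone morphogenetic proteins (BMPs), which signal through SMAD1, SMAD5 and SMAD9, are among the best known inducers of Id transcription. In liver, Id1 is a standard readout of this pathway beside hepcidin. Id1 and Id3 are also known from blood vessel growth, Id3 from Kupffer cells, Id2 from innate lymphoid and dendritic cells, and Id4 mainly from brain.

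The 4 genes were found by symbol in a table of read counts for 21983 genes, and all 4 were tested among the 13153 genes that passed a filter on low counts. The family was selected on earlier results of these same livers, in which Id1 and Id3 were low in one genotype. The genotype values of the members below are therefore a description and carry no test.

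Total RNA of whole liver was sequenced in 6 C57BL/6 mice with floxed Prmt1 alleles. Prmt1 encodes an enzyme that places asymmetric dimethyl groups on arginines of proteins. In 3 of the mice (Lrat-Cre; Prmt1f/f, numbers 49, 82 and 88, here the knockout mice) Cre was driven by Lrat, which in liver marks hepatic stellate cells. The other 3 (Prmt1f/f, numbers 42, 83 and 90, here the control mice) had no Cre. All 6 had thioacetamide (TAA), a liver toxin that causes scarring, in their drinking water at 400 mg/L over 16 weeks, so no group shows the liver without TAA. The labelled age is 10 weeks, without saying at which point of the treatment, and no sex is given. Cells that never used Lrat still hold Prmt1.

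Total counts per mouse lay between 13303884 and 16462278. Levels are given as CPM, counts scaled to a common library size with edgeR's TMM factors. Prmt1, the targeted gene, had 38.9, 44.4 and 49.8 CPM in control mice 42, 83 and 90 and 35.8, 24.7 and 25.8 CPM in knockout mice 49, 82 and 88. Its log2 fold change was -0.62 (SE 0.20; adjusted p = 0.347 in edgeR's quasi-likelihood test; exact two-sided permutation p = 0.1, the smallest that 3 mice against 3 can give). Hepatocyte markers were abundant in every mouse (summed level 76384 to 115307 CPM), as the tissue label requires. The most alike libraries, of knockout mice 82 and 88, differed with a chi-square of 14.3 per degree of freedom over their counts, so each library was counted as 1 sample. The 3 mice of a genotype are separate animals per their titles.

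The start regions of the family are shown first, because the best known inducer of these genes acts through SMAD proteins that bind short GC-rich elements. RefSeq promoters (GRCm38.p6) were at hand for 3 of the 4 genes, each running from 250 bases before to 50 bases after the annotated start. Capitals mark every match to GGCGCC or GGAGCC on either strand, which are forms of such elements. The windows are Id2 on the minus strand at chr12:25096043-25096342, Id3 on the plus strand at chr4:136143572-136143871 and Id4 on the plus strand at chr13:48260866-48261165.
Id2: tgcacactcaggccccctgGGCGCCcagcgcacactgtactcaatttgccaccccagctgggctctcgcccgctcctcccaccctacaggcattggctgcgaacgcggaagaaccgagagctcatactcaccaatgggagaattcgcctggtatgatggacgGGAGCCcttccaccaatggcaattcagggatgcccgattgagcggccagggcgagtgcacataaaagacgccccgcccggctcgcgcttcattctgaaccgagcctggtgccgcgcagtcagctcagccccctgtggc
Id3: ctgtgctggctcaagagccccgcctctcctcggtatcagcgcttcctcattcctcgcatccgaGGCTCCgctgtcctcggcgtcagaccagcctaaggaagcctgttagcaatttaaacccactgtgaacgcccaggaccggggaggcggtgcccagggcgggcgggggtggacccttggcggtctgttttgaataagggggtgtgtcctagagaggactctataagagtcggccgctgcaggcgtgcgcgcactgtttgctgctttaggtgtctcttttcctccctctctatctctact
Id4: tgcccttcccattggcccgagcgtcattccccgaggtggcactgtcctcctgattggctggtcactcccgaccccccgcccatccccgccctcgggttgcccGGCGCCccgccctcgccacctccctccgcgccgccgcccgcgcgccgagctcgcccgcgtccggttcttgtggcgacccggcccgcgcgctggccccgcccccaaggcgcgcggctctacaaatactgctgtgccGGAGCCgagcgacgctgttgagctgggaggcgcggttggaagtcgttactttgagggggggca

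GGCGCC, which reads the same on both strands, occurred once in the Id2 window (from position -231, counting the start as 0) and once in the Id4 window (-148). The Id3 window held no match to it. Of 27025 mouse promoters of the same length, 11.96% held this element. The form GGAGCC occurred once in each of the 3 windows, at -88 in Id2, -187 in Id3 (on the opposite strand, written GGCTCC) and -13 in Id4, and in 30.5% of all promoters. The E box, CANNTG, to which E proteins bind, occurred once in the Id2 window, as CAGCTG at -196, and not in the other two. It was in 72.1% of all promoters. CCAAT, the box bound by NF-Y, had 3 matches in Id2, 2 in Id4 and none in Id3, against 37.9% of promoters with at least 1. These windows were GC-rich, at 63.3% in Id2, 60.0% in Id3 and 73.3% in Id4, where the median promoter had 52.7%. Positions count from the RefSeq start, which is not the gene end in GENCODE M21. The Id2 and Id3 windows lie within the GENCODE bounds given below, and the Id4 window ends before its GENCODE start. A match is a description of the letters in this window and no evidence of binding.

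Id1 lies on chromosome 2 from 152736251 to 152737410 (plus strand, GENCODE M21 on GRCm38, the assembly of mm10). Control mice 42, 83 and 90 had 41.9, 55.0 and 86.6 CPM, from 628, 1083 and 1059 counts. Knockout mice 49, 82 and 88 had 16.1, 15.0 and 17.8 CPM, from 250, 200 and 247 counts. The 3 knockout livers were close to each other and all far below the lowest control, which was 2.35 times the highest knockout. The control livers spread widely, with mouse 90 at 2.07 times mouse 42. Means were 61.2 ± 23.0 CPM (SD, n = 3) and 16.3 ± 1.42 CPM (SD, n = 3), so that knockout livers held 26.6% of the control level. The fitted log2 fold change was -1.91 (SE 0.27). Of the 13153 genes tested, 87 (0.661%) had a fold change further below 0. In whole liver, fewer cells of an expressing type and less RNA per cell cannot be told apart, and this holds for every level given here.

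Id3, on chromosome 4 from 136143497 to 136145755, was the next in size of difference. Control mice 42, 83 and 90 had 145.0, 128.0 and 175.1 CPM, and knockout mice 49, 82 and 88 had 77.5, 68.8 and 82.003 CPM. The groups did not overlap, the lowest control being 1.56 times the highest knockout. Means were 149.4 ± 23.9 and 76.1 ± 6.72 CPM (SD, n = 3 each), with 50.9% of the control level left in knockout livers. The log2 fold change was -0.97 (SE 0.19).

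Id2, on chromosome 12 from 25093799 to 25097140, differed less. Its level was 147.1, 107.3 and 135.7 CPM in control mice 42, 83 and 90, against 91.4, 84.7 and 86.1 CPM in knockout mice 49, 82 and 88. These groups also stood apart, but narrowly, the lowest control (mouse 83) being 1.17 times the highest knockout (mouse 49). Means were 130.0 ± 20.5 and 87.4 ± 3.52 CPM (SD, n = 3 each), 67.2% of the control level, with a log2 fold change of -0.57 (SE 0.18).

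Id4, on chromosome 13 from 48261228 to 48266026, was scarce. It had 67, 52 and 34 counts in control mice 42, 83 and 90 and 45, 19 and 27 counts in knockout mice 49, 82 and 88, or 4.47, 2.64, 2.78, 2.90, 1.42 and 1.95 CPM in that order. Knockout mouse 49 lay above 2 of the 3 control mice, so the groups overlapped. The means were 3.30 ± 1.02 and 2.09 ± 0.747 CPM (SD, n = 3 each) and the log2 fold change was -0.65 (SE 0.40). The locus also holds the antisense gene A330033J07Rik and the non-coding gene Gm49291 on the opposite strand. The strand setting of the authors' counting is not given, and reads from the stretches that these genes share with Id4 therefore cannot be told apart.

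**Figure D1:**
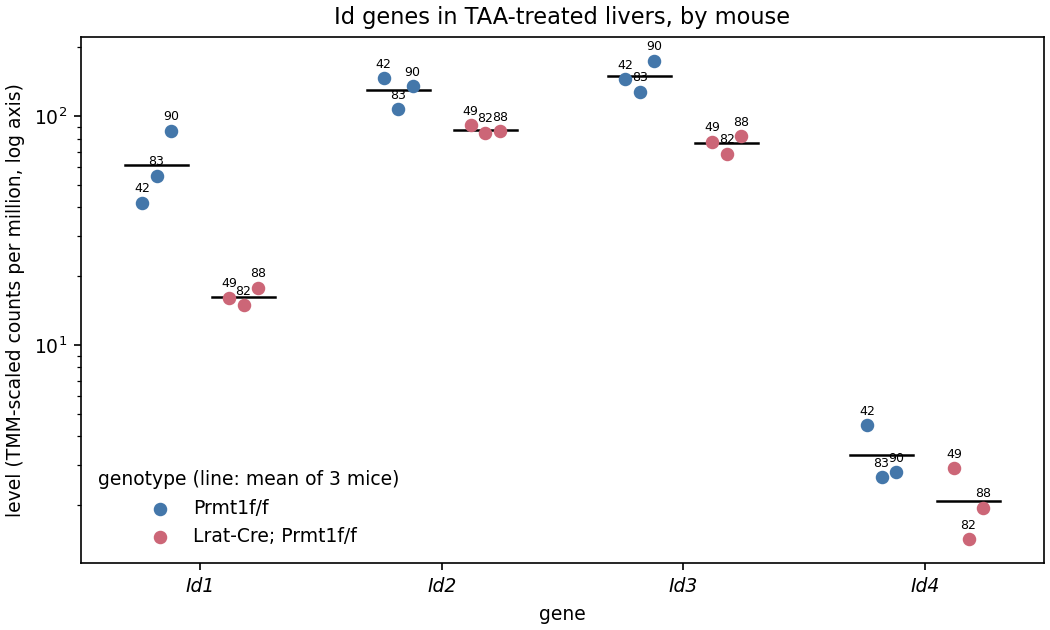
Level of each Id gene (TMM-scaled CPM, log axis) in the 6 livers, with mouse numbers beside the points and a line at the mean of 3 mice. Id1, Id2 and Id3 are lower in all 3 Lrat-Cre; Prmt1f/f mice than in all 3 Prmt1f/f mice, by the widest margin for Id1 (26.6% of the control mean), while Id4 overlaps.

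Thus 3 of the 4 members had knockout livers all below control livers, a pattern that 7.95% of all tested genes showed in this direction. Because the family was chosen from this contrast, nothing is read from that count. None of the 4 passed an adjusted p of 0.05 in edgeR as fitted here, where 0% of tested genes were called in either direction. DESeq2, run as an alternative, called 2 of the 4 (Id1 and Id3) lower, beside 0.935% of all genes called lower by it. Id1 was also called lower by edgeR without the low-count filter, beside 0.0236% of the genes then tested. Limma-voom with library weights called Id1 and Id3 lower, beside 1.96% of genes. These calls rest on the values from which the family was chosen, so nothing is read from them either. The median log2 fold change of the 4 members was -0.81, and that of all tested genes -0.02. A negative fold change was seen in 52.7% of all tested genes, the share beside which counts of signs below stand.

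Mouse numbers 42 and 49 are far from the other numbers, and their libraries were the most alike of all pairs across the genotypes (chi-square 24.8 per degree of freedom). The labels do not call this a batch. Between these 2 mice alone, Id1 was 41.9 CPM in the control and 16.1 CPM in the knockout, Id3 145.0 and 77.5 CPM, Id2 147.1 and 91.4 CPM, and Id4 4.47 and 2.90 CPM. Among the 4 mice numbered over 80, the log2 fold change was -2.11 for Id1, -1.004 for Id3, -0.51 for Id2 and -0.68 for Id4. Each member was lower in the knockout within both sets. For Id1, Id2 and Id3, whose groups do not overlap, any split of the mice must give this. Mice 42 and 49 are also a single mouse per genotype, so nothing is read from the split.

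Levels of different genes can be compared only per length, so counts were divided by the length of all annotated exons of a gene (1160 bases for Id1, 2438 for Id2, 1791 for Id3 and 3849 for Id4). Per kilobase, Id3 was the most abundant in control livers, at 83.4 ± 13.3 CPM per kilobase (SD, n = 3). Id2 (53.3 ± 8.42) and Id1 (52.7 ± 19.8) followed, and did not differ from each other by more than their spread. Id4 was at 0.857 ± 0.264. In knockout livers the order was Id3 (42.5 ± 3.75), Id2 (35.8 ± 1.44), Id1 (14.0 ± 1.22) and Id4 (0.543 ± 0.194), with gaps between neighbours that exceeded their SDs.

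Id3 was above Id2 per length in all 6 mice. Id1 was above Id2 in control mice 83 and 90 and below it in control mouse 42 and all 3 knockout mice. Summed over the family, the per-length level was 178.6, 163.6 and 228.8 in control mice 42, 83 and 90 and 95.4, 86.4 and 96.96 in knockout mice 49, 82 and 88. Id3 held a like share of that sum in both genotypes, 43.9 ± 1.32% in control and 45.7 ± 1.42% in knockout livers (SD, n = 3 each). The share of Id1 was 27.3 ± 6.39% against 15.1 ± 0.654%, and that of Id2 28.3 ± 4.90% against 38.6 ± 1.96%. Id4 never held more than 0.789% of the sum.

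**Figure D2:**
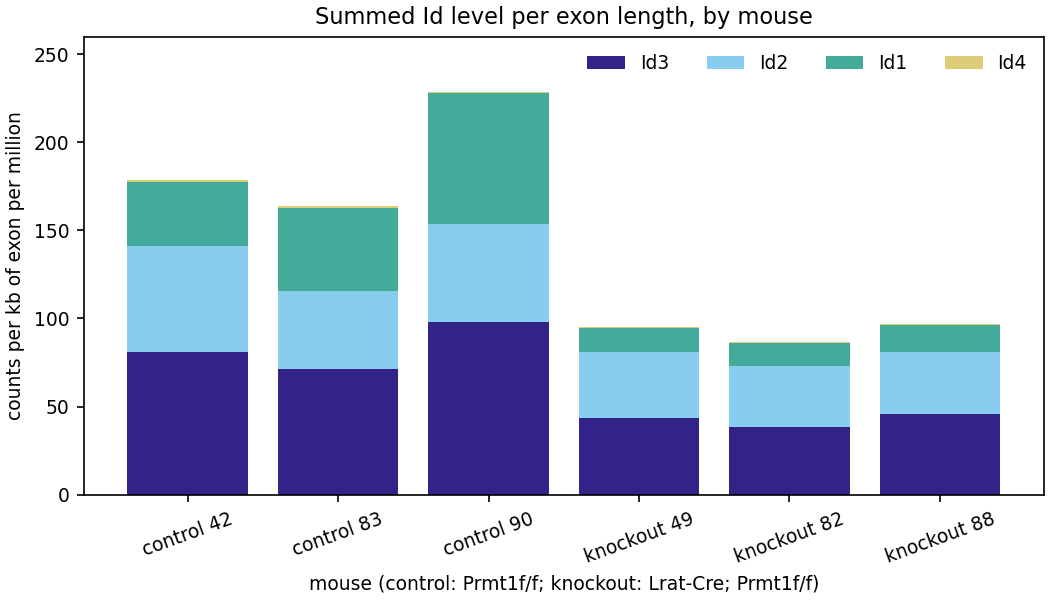
Stacked bars give the level of each Id gene in CPM per kilobase of exon for each mouse (control: Prmt1f/f; knockout: Lrat-Cre; Prmt1f/f). The 3 knockout bars reach 86.4 to 96.96 and the control bars 163.6 to 228.8, and the Id1 layer takes 15.1% of the knockout bars on average against 27.3% of the control bars.

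Ratios between members within a mouse do not depend on how libraries were scaled. Id1 over Id3, per length, was 0.446, 0.664 and 0.764 in control mice 42, 83 and 90 and 0.321, 0.336 and 0.335 in knockout mice 49, 82 and 88. All knockout ratios were below all control ratios and lay close together, with control mouse 42 nearest to them. Id1 over Id2 was 0.598, 1.08 and 1.34 in those control mice and 0.370, 0.372 and 0.434 in those knockout mice, again without overlap. Id3 over Id2 was 1.34, 1.62 and 1.76 against 1.16, 1.11 and 1.30, where control mouse 42 and knockout mouse 88 nearly met.

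Within a genotype the members did not share one order of mice. Among control mice, mouse 90 was highest in Id1 and Id3 and mouse 42 highest in Id2 and Id4. Among knockout mice, mouse 88 was highest in Id1 and Id3 and mouse 49 in Id2 and Id4, while mouse 82 was lowest in all 4. Spread was wider in control livers for Id1, Id2 and Id3, with a coefficient of variation of 37.6%, 15.8% and 16.0% against 8.69%, 4.03% and 8.83% in knockout livers. For Id4 it was 30.8% and 35.8%.

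The Id transcripts have no 50-base run in common, so reads of that length with no mismatch could not be shared among members. Of 2433 distinct 50-base runs of Id2 transcripts, 8 also occur in a transcript of Gm6175. Those of Id1 (1157) and Id3 (1741) occur in no other annotated transcript. For Id4, 79 of 3800 runs occur on the opposite strand in Gm49291, and 18 runs do so in A330033J07Rik.

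The genes whose profile over the 6 mice was most like that of each member were taken by the root mean square difference of log2 CPM, each profile centred on its own mean. Genes picked in this way share much of the member's genotype difference by construction, so their levels are a description. For Id1 these were Tmem45a (0.22), Igfbp7 (0.26), Rtn1 (0.26), S100a11 (0.27) and Ncam1 (0.28), where the median gene differed by 1.003. Igfbp7, a secreted binding protein of insulin-like growth factors, had a mean of 394.6 CPM in controls and 96.3 CPM in knockouts, and Tmem45a, a membrane protein, 15.7 and 4.15 CPM. For Id3 they were Prim2 (0.11), Stap1 (0.12), Kcne4 (0.12), Tagln (0.12) and Cd300lb (0.16), with a median of 0.59 over all genes. Tagln, an actin-binding protein of contractile cells, had 33.9 and 16.5 CPM, and Prim2, the large subunit of DNA primase, 5.56 and 2.50 CPM.

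For Id2 they were Ihh (0.06), Tgif1 (0.10), Spc24 (0.10), Pop7 (0.11) and Alkbh2 (0.11), with a median of 0.44. Tgif1, a homeobox repressor that binds SMADs, had 28.2 CPM in controls and 19.6 CPM in knockouts. Ihh, the Indian hedgehog ligand, had 5.38 and 3.75 CPM. For the scarce Id4 the nearest were Nr4a1 (0.14), Gm49359 (0.14), Dusp10 (0.14), Prph (0.15) and Napepld (0.15), with a median of 0.57. Seen from Id3, Id2 was the 59th nearest gene (0.24), and seen from Id1, Id3 was the 130th (0.50). Ranks the other way were far lower for Id1, which was the 3743rd nearest gene seen from Id3. It was the 11695th seen from Id2 (0.73) and the 11272nd seen from Id4 (0.82). From Id2 and Id4, Id1 thus differed by more than the median gene. The members were thus not each other's closest profiles, and likeness over 6 mice says nothing of shared control.

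The E proteins are the main partners that Id proteins sequester. None of the 3 stood apart between genotypes. Tcf3 (E2A) had 37.8 ± 4.78 CPM in controls and 33.1 ± 5.26 CPM in knockouts (log2 fold change -0.19, SE 0.19), Tcf4 (E2-2) had a log2 fold change of -0.08 (SE 0.25) and Tcf12 (HEB) one of 0.12 (SE 0.18). Their median, -0.08, was negative, but it was 0.03 among the 4 mice over 80, 0.14 without control mouse 83 and 0.11 without knockout mouse 49. Of 20 tissue-restricted partners of E proteins, 8 were abundant enough to be tested and none passed in edgeR. Lyl1, a factor of blood and endothelial cells, had 4.12 ± 1.40 against 2.01 ± 0.852 CPM (-1.05, SE 0.44). Its knockout mice were all below its control mice, as for 7.95% of all tested genes. Hand2, a stellate cell factor, had 33.95 ± 10.6 against 21.8 ± 11.8 CPM (-0.64, SE 0.41) with overlap.

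E proteins activate inhibitors of the cell cycle, and Id proteins are known to hold several of these genes down. Of the 5 inhibitors listed, 3 had a negative and 2 a positive fold change and 0 passed in edgeR. DESeq2 called Cdkn2b (p15) lower, beside 0.935% of all genes. Cdkn2b had 3.47 ± 2.02 CPM in controls and 0.953 ± 0.179 CPM in knockouts (-1.86, SE 0.49). Cdkn1a (p21) was at 238.2, 173.1 and 169.9 CPM in control mice 42, 83 and 90 and at 264.0, 86.2 and 71.3 CPM in knockout mice 49, 82 and 88 (-0.46, SE 0.46). Mouse 49 was the highest of all 6 and the other 2 knockout mice the lowest, so the genotypes overlapped. Cdkn2a, the p16 and p19 locus, had 1.57 ± 0.861 against 0.817 ± 0.0602 CPM (-0.94, SE 0.54). Cdkn1c (p57) and Cdkn1b (p27) were at 0.31 (SE 0.42) and 0.06 (SE 0.21).

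Upstream of the Id genes, no BMP ligand passed in edgeR or DESeq2 (9 of 13 tested, 7 with a negative fold change, median log2 fold change -0.35, which was -0.16 without knockout mouse 49, -0.56 without control mouse 42 and -0.52 without knockout mouse 88). Bmp2 and Bmp6, which liver endothelium makes and which induce hepcidin in hepatocytes, had log2 fold changes of 0.28 (SE 0.24) and -0.23 (SE 0.34). Gdf2 (BMP9), which stellate cells supply, was at 36.7, 37.3 and 53.5 CPM in control mice 42, 83 and 90 and 15.8, 29.2 and 46.8 CPM in knockout mice 49, 82 and 88 (-0.47, SE 0.35). Its groups overlapped, and knockout mouse 88 exceeded 2 control mice. Bmp10, its close relative, had 3.37 ± 1.96 against 2.67 ± 0.376 CPM (-0.35, SE 0.47). Bmp8b (-1.02, SE 0.34) and Gdf6 (-1.11, SE 0.53) had the smallest p of the ligands, and only Bmp8b had separate groups. Separate groups with the knockout lower were seen in 7.95% of all tested genes.

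Of 11 receptors and co-receptors tested, 0 passed with edgeR and 0 with DESeq2. A negative sign was seen in 4, and the median was 0.10, which turned to -0.07 when libraries were scaled by total counts alone and to -0.003 without control mouse 90. Acvrl1 (ALK1), the endothelial receptor of BMP9 and BMP10, had a log2 fold change of -0.21 (SE 0.32) and its co-receptor Eng, endoglin, one of -0.06 (SE 0.24). Bmpr1a (ALK3), the type I receptor that hepatocytes use for hepcidin, was at 53.0 ± 3.49 and 56.5 ± 5.29 CPM (0.09, SE 0.16). Bmpr2, a type II receptor, was at 0.14 (SE 0.19). Acvr2b (0.66, SE 0.36) and Acvr2a (0.28, SE 0.19), type II receptors shared with activins, had the smallest p.

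None of the 4 SMADs that carry the signal passed in edgeR or DESeq2. Smad1 had 36.4, 30.5 and 41.1 CPM in control mice 42, 83 and 90 and 30.1, 27.95 and 28.7 CPM in knockout mice 49, 82 and 88 (log2 fold change -0.32, SE 0.17). Its groups did not overlap, as for 7.95% of all tested genes in this direction, but knockout mouse 49 almost reached control mouse 83. Smad5 (0.20, SE 0.25) and Smad4 (0.19, SE 0.20), the partner common to all SMADs, overlapped. Smad9 was at 13.3, 3.81 and 3.68 CPM in those control mice and 3.93, 6.59 and 17.2 CPM in those knockout mice (0.41, SE 0.64). It varied more within each genotype than between them. Of 9 SMAD inhibitors 0 passed in edgeR, and 6 had a negative and 3 a positive fold change, with a median of -0.24 (-0.09 without control mouse 83 and -0.42 without control mouse 90). Smad6 and Smad7, feedback inhibitors that BMP signals induce, had log2 fold changes of -0.24 (SE 0.29) and -0.55 (SE 0.24), and the decoy receptor Bambi -0.69 (SE 0.42). Pmepa1, a TGF-beta induced inhibitor, had 28.6 ± 7.11 against 15.1 ± 3.55 CPM (-0.92, SE 0.25) with separate groups, as for 7.95% of all tested genes. Of opposite sign were Tob1 (0.40, SE 0.24), a BMP-SMAD repressor, and the ubiquitin ligases Smurf1 (0.18, SE 0.24) and Smurf2 (0.007, SE 0.17).

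Among extracellular antagonists, 10 of 14 were tested and 0 passed in edgeR. Fstl1, a follistatin-like glycoprotein, had 60.7 ± 14.3 CPM in controls and 24.6 ± 8.70 CPM in knockouts (-1.31, SE 0.30). DESeq2 called it lower, beside 0.935% of all genes. Chordin (Chrd), which traps BMPs, was higher in all knockout mice (4.24 ± 0.724 against 7.04 ± 1.04 CPM, 0.73, SE 0.27) without passing by either tool. Of all tested genes, 8.94% were higher in all knockout mice than in all control mice. The median of the antagonists was 0.19, and -0.01 without knockout mouse 88.

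Of 16 other genes listed as BMP targets, 12 were tested. Atoh8, Cdkn2b, Smad6, Smad7, Smad9 and Bambi are among them and were also counted in the lists above. None passed in edgeR. A negative sign was seen in 10, where 52.7% of all tested genes had one, and their median was -0.48 on the log2 scale (-0.74 without knockout mouse 88). DESeq2 called Hamp, Tmem100 and Cdkn2b, the last better known as a target of TGF-beta, lower, beside 0.935% of all genes. Hamp, which encodes the iron hormone hepcidin, had 929.6, 213.1 and 1293 CPM in control mice 42, 83 and 90 and 125.8, 74.6 and 191.5 CPM in knockout mice 49, 82 and 88 (-2.64, SE 0.62). Control mouse 83 was near the knockout mice for Hamp but not for Id1. Tmem100, an endothelial target of ALK1, had 3.11 ± 1.002 against 0.557 ± 0.247 CPM (-2.46, SE 0.49). Atoh8, a helix-loop-helix gene of hepatocytes induced with hepcidin, overlapped (-0.39, SE 0.29), and Hamp2, the hepcidin paralogue, was at 0.03 (SE 0.81). The 2 hepcidin genes are close in sequence, and how the counting treated reads that match both is not known.

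**Figure D3:**
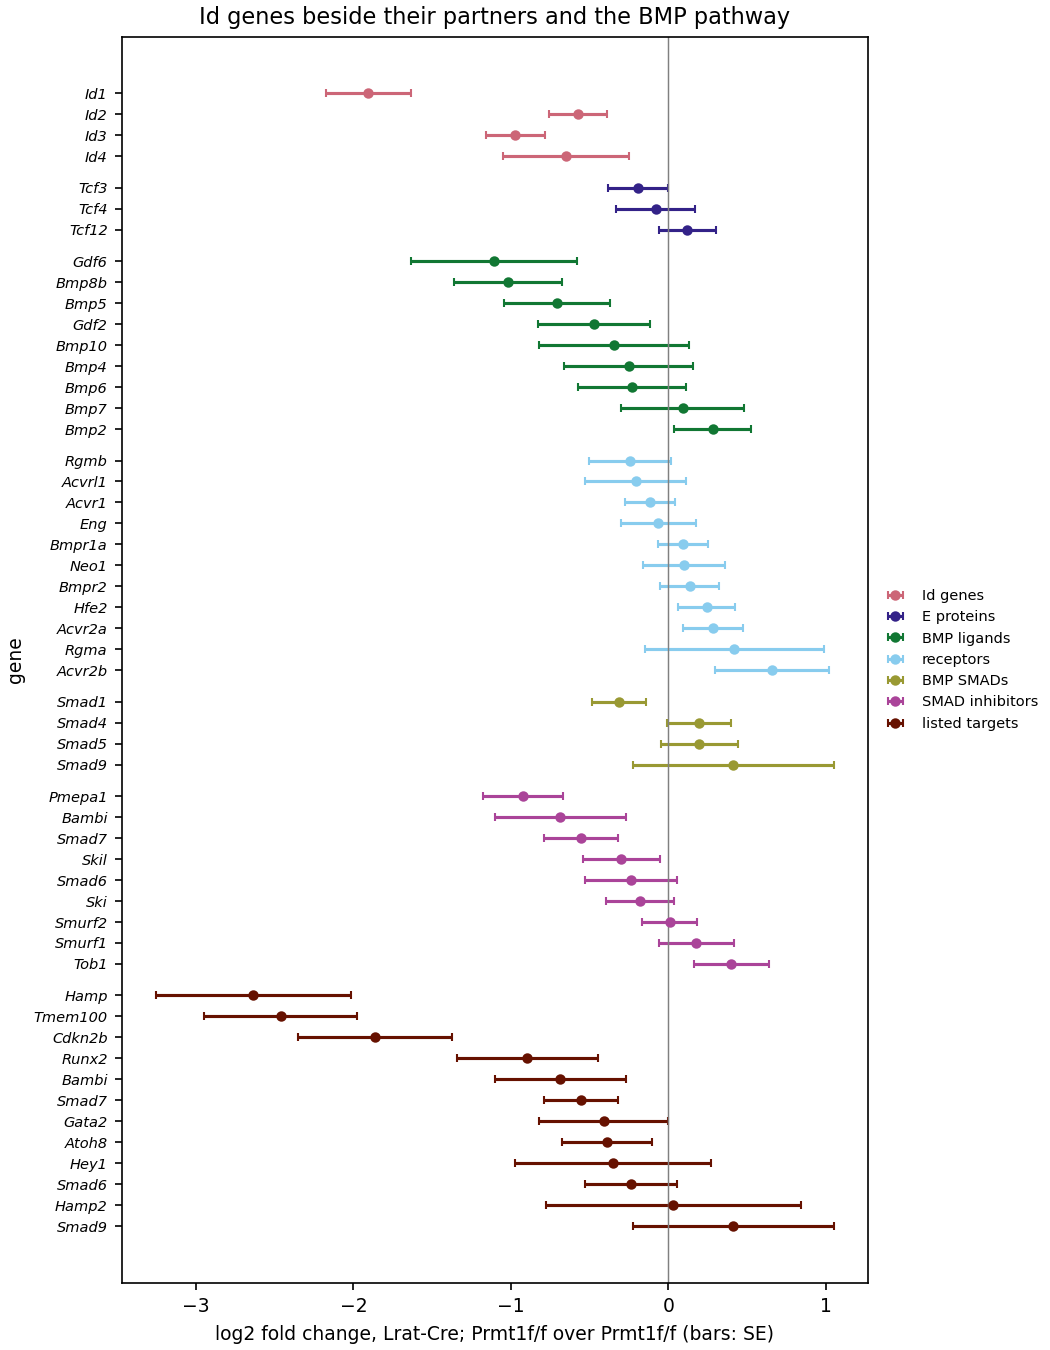
Log2 fold change (knockout over control) with SE for the Id genes and all tested genes of the lists of E proteins, BMP ligands, receptors, SMADs, SMAD inhibitors and BMP targets, each gene under every list that holds it, from the fit of all 13153 genes on 3 mice per genotype. Id1 is at -1.91, the 12 listed targets run from -2.64 (Hamp) to 0.41 (Smad9) with a median of -0.48, E proteins lie between -0.19 and 0.12, receptors between -0.25 and 0.66 and SMADs between -0.32 and 0.41.

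Growth factors also induce Id genes, and EGR1 is a known activator of Id3 in thymocytes. Of 24 early response genes 21 were tested, 20 of them with a negative fold change, against 52.7% of all tested genes. The median of the early genes was -0.57 (-0.32 without control mouse 90 and -0.98 among the 4 mice over 80), and 0 passed in edgeR. DESeq2 called Klf4, a zinc finger factor, lower, beside 0.935% of all genes. Klf4 had 8.91 ± 3.44 CPM in controls and 2.88 ± 0.800 CPM in knockouts (-1.63, SE 0.36). Ier3, an early gene tied to survival, was at -1.09 (SE 0.31), and Egr1 itself overlapped (70.5 ± 22.3 against 47.3 ± 17.0 CPM, -0.57, SE 0.30). The part of sampling stress in the Id levels was not tested.

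Id2 is also known as a rhythmic gene tied to the circadian clock. Of 19 clock genes tested 15 had a positive fold change, with a median of 0.48 (0.27 without control mouse 90), and 0 passed in edgeR or DESeq2. Ciart (0.76, SE 0.22) and Cry2 (0.53, SE 0.19), repressors of the clock, were higher in all knockout mice than in all control mice, as were 8.94% of all tested genes. The summed clock level was 948.3 to 1197 CPM in controls and 1220 to 1497 CPM in knockouts. The labels give no time of sampling, and the part of clock phase in the Id2 levels was not tested.

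Markers of cell types that can express Id genes were summed per mouse. Stellate cell markers (18 of 18 tested, 17 with a negative fold change against 52.7% of all tested genes, median -0.60, 0 passed in edgeR, 6 lower by DESeq2 beside 0.935% of all genes) summed to 1583 to 1786 CPM in controls and 558.9 to 1112 CPM in knockouts, without overlap. Their smallest p belonged to Vipr1 (-0.83, SE 0.17), a peptide receptor, and Col3a1 (-1.58, SE 0.33), a fibrillar collagen. Per 100 CPM of that sum Id1 was 2.50, 3.08 and 5.47 in control mice 42, 83 and 90 and 2.88, 1.36 and 1.60 in knockout mice 49, 82 and 88. On this scale knockout mouse 49 lay among the controls, and Id2 and Id3 overlapped too. Several of these markers were already known to be low in these knockout livers, and their part in the Id levels was not tested.

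Endothelial markers (20 of 20 tested, 14 negative, median -0.11 but 0.01 in limma-voom with library weights, 0 passed by edgeR or DESeq2) summed to 726.3 to 935.9 CPM in controls and 645.0 to 967.1 CPM in knockouts, so the sums overlapped. Their smallest p belonged to Ptprb (0.48, SE 0.21), a vascular phosphatase, and Lyve1 (-0.92, SE 0.44), a hyaluronan receptor. Pecam1 (0.004, SE 0.21) and Kdr (0.13, SE 0.21), picked after their values were seen, did not stand apart. Ptprb was higher and the listed marker Esam lower in all knockout mice than in all control mice. Of all tested genes, 8.94% and 7.95% were so in these directions. Per 100 CPM of endothelial markers Id1 was 5.76, 6.92 and 9.26 in control mice 42, 83 and 90 and 2.17, 1.55 and 2.76 in knockout mice 49, 82 and 88. Id1 was separate on this scale, and so was Id3 (16.1 to 19.96 against 7.11 to 12.7). Id2 was separate by a narrow gap, with control mouse 83 at 13.5 and knockout mouse 88 at 13.4. The family was chosen with Id1 and Id3 low in these knockout livers. How many of all genes stay separate per marker sum was not computed. Nothing is therefore read from separation or overlap on this or the other marker scales. The part of endothelial cells in the Id levels was not tested.

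Genes of dividing cells, in which Id levels are often high, were lower as well (12 of 12 with a negative fold change against 52.7% of all tested genes, median -1.25, 0 passed in edgeR, 4 lower by DESeq2 beside 0.935% of all genes). The median was -1.92 without knockout mouse 49, -2.02 among the 4 mice over 80 and -1.97 in limma-voom with library weights. They summed to 140.4 to 172.0 CPM in controls and 52.2 to 104.6 CPM in knockouts. Mcm5 (-1.37, SE 0.28) and Mcm2 (-1.13, SE 0.23), parts of the replicative helicase, had the smallest p. Per 100 CPM of dividing cell genes Id1, Id2 and Id3 each overlapped between genotypes. The part of dividing cells in the Id levels was not tested.

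Macrophage markers overlapped (689.7 to 2065 CPM in controls and 887.0 to 1183 CPM in knockouts, 17 tested, median -0.28 but 0.04 and 0.09 in limma-voom without and with library weights, -0.55 without control mouse 42, -0.17 without knockout mouse 49 and -0.06 without control mouse 90), with Itgax (-0.96, SE 0.28) and Marco (1.47, SE 0.51) of opposite sign. Bile duct markers overlapped (555.6 to 1355 against 308.0 to 780.3 CPM, median -0.76, but -0.39 without control mouse 83, -0.49 without knockout mouse 49 and -1.28 without knockout mouse 88), Cldn4 (-1.60, SE 0.54) and Muc1 (-1.22, SE 0.42) leading. Of 19 lymphocyte markers 12 were tested, with a median of -1.26 (-0.69 without control mouse 90) and 0 past the threshold in edgeR. Their sum overlapped and was no lower in knockouts, at 69.1 to 116.9 CPM in controls and 70.4 to 124.4 CPM in knockouts. Cd79a, part of the B cell receptor, was at -1.41 (SE 0.45). Hepatocyte markers overlapped (76384 to 115307 against 94588 to 113754 CPM, median 0.57), with Pck1 (1.11, SE 0.33) and Cps1 (1.04, SE 0.34) called higher by DESeq2, beside 0.874% of all genes. Per 100 CPM of bile duct markers Id1 overlapped between genotypes (4.06 to 7.54 in controls and 2.28 to 5.23 in knockouts). Per 100 CPM of macrophage markers it was separate (3.60 to 6.07 and 1.27 to 1.81), as it was per hepatocyte and per lymphocyte markers. Id2 and Id3 overlapped per bile duct and per macrophage markers. As for the endothelial scale, nothing is read from which scales left the groups separate. The part of these cell types in the Id levels was not tested. No marker gene of these lists was without a count in all mice.

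**Figure D4:**
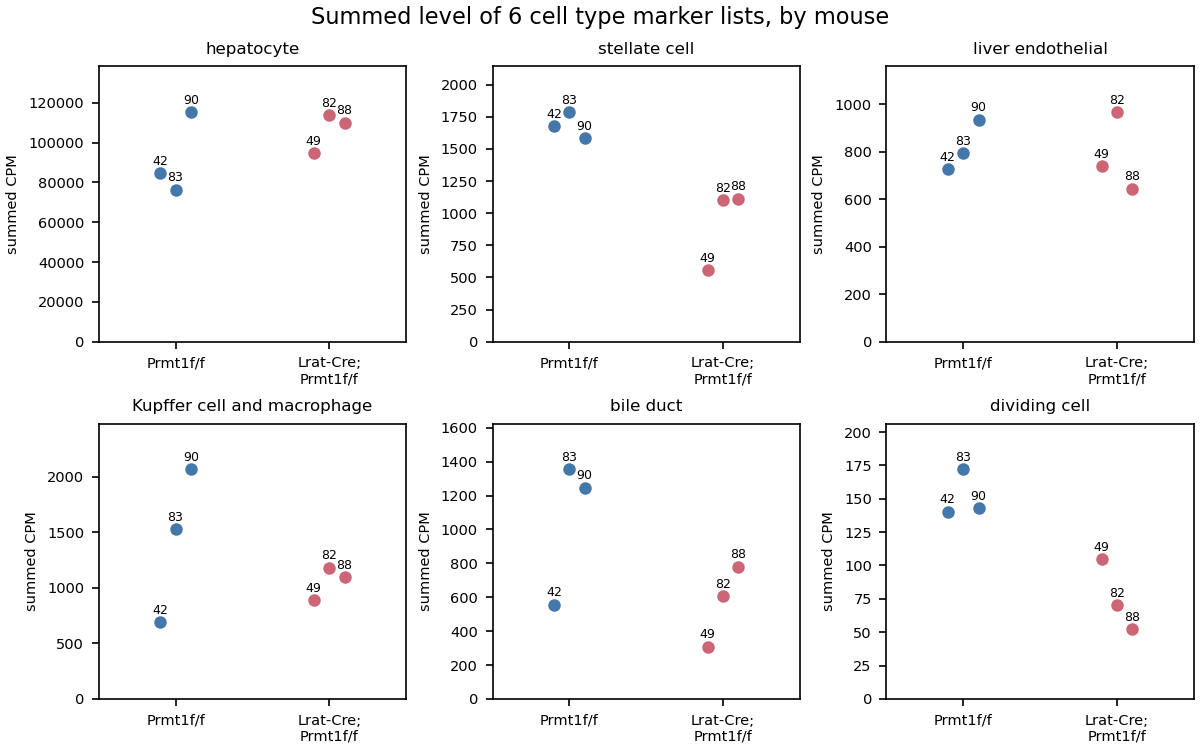
Summed CPM of 6 lists of cell type markers in each mouse, with mouse numbers beside the points and each axis starting at 0. Stellate cell and dividing cell sums are lower in all 3 Lrat-Cre; Prmt1f/f mice, at 558.9 to 1112 and 52.2 to 104.6 CPM, while endothelial and the other sums overlap.

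**Figure D5:**
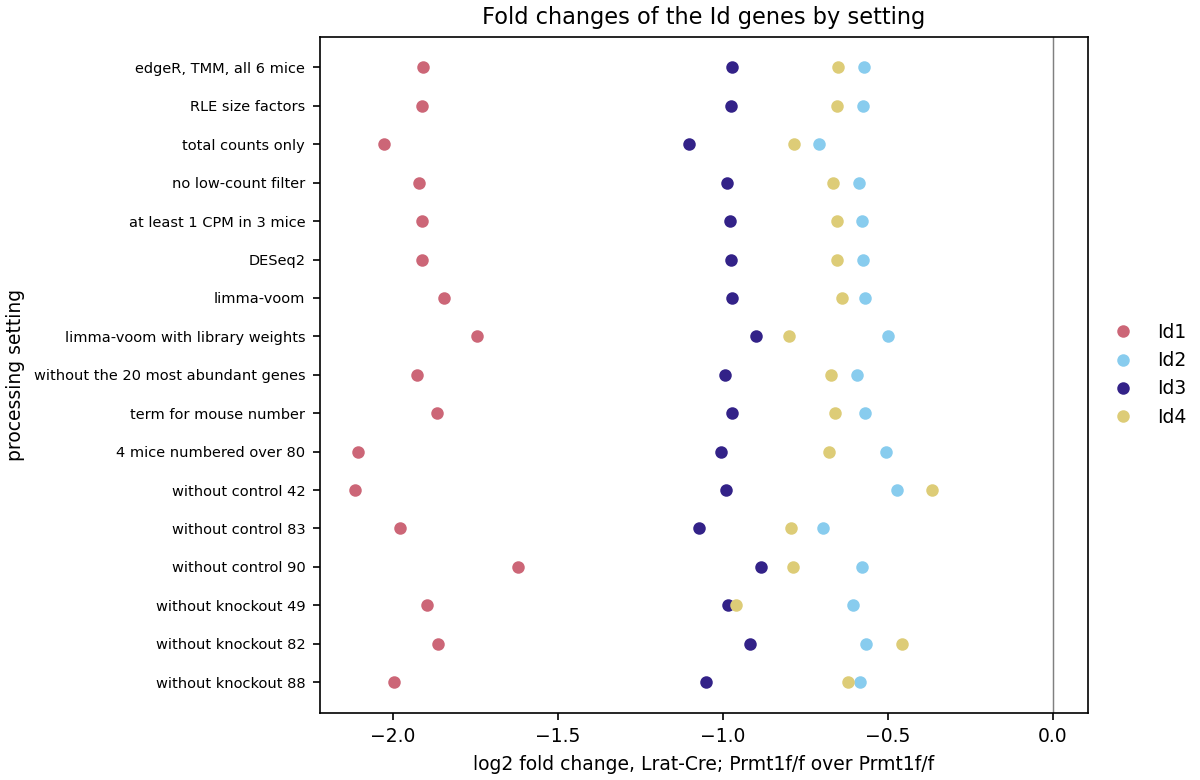
Log2 fold change (knockout over control) of each Id gene under the reported fit and 16 other settings. Every point is below 0, Id1 stays between -2.11 and -1.62 and is the lowest in each setting, and Id4 moves most, from -0.96 to -0.37. All settings reuse the counts from which the family was chosen, so nothing is read from the shared sign.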

How the data were processed

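Raw counts per gene were deposited by the authors, 1 column per mouse and 0 columns of other samples. Per the submitters' processing notes, reads passed through Trimmomatic, FastQC, STAR and HTSeq on mm10 (no versions stated). Which annotation and strand setting were used is not given in the sources used here. Columns were joined to mice by mouse number. Numbers are not shared between genotypes, so nothing was paired.

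Counts passing filterByExpr were scaled by TMM and fitted by edgeR's quasi-likelihood test (edgeR 4.0.16, R 4.3.3) over the 6 mice, with no term beside genotype, adjusted by Benjamini-Hochberg at 0.05 over all 13153 genes. The SE is the fold change over the root of F. Profiles used log2 CPM with a prior count of 2. The test was tried on simulated counts first. Over 5 runs it found on average 30.6% of 2-fold and 91.6% of 4-fold changes placed in genes that were not scarce. A gene that did not pass in edgeR may therefore still differ. Members and lists were chosen with earlier results of these data known. Named genes are the members, fixed pathway genes, the 2 of smallest p per list and the 5 nearest profiles. Others (Pecam1, Kdr, Esam, Egr1, Hamp2, Smad9, Tob1, Smurf1, Smurf2, Cdkn1b, Cdkn1c) were chosen after their values were seen. Some genes are not reported here. Alternatives were RLE factors, total counts, no filter, 1 CPM in 3 mice, DESeq2 1.42.0, limma-voom (limma 3.58.1) with and without library weights, the 20 most abundant genes left out, a term for mouse number, the 4 mice over 80, and each mouse left out. Positions come from GENCODE M21 and promoters from RefSeq.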

Additional observations from a re-analysis of the deposited data

How the results depend on the processing

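Each Id gene kept its negative sign in all 16 other settings, and none moved by more than the spread between mice. For Id1, Id2 and Id3, whose groups do not overlap, leaving out mice is bound to keep the sign. The other settings refit the counts from which the family was chosen, so nothing is read from the kept signs. The log2 fold change ranged from -2.11 to -1.62 for Id1, -1.10 to -0.88 for Id3, -0.71 to -0.47 for Id2 and -0.96 to -0.37 for Id4. Leaving out 1 mouse gave -2.11 to -1.62, -1.07 to -0.88, -0.69 to -0.47 and -0.96 to -0.37. Without control mouse 42, Id4 was at -0.37, against -0.65 with all mice. With total counts as the only scaling the median of all genes was at -0.17, against -0.02 with TMM, and Id1 was at -2.02.

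The number of genes past an adjusted p of 0.05 was 0 in edgeR (1448 at an unadjusted p under 0.05). It was 4 without the low-count filter, 238 in DESeq2, 560 in limma-voom with library weights, 6 with a term for mouse number and 3 at an adjusted p of 0.10. Leaving out 1 mouse gave 0 to 13 genes, the latter without knockout mouse 49. Prmt1 passed only in limma-voom with library weights (-0.74, adjusted p = 0.0383; 0.106 to 0.839 in the other alternatives). The cause of these differences was not tested. No paired analysis was possible because the genotypes share no mouse number. Id4, with 19 to 67 counts per mouse, is limited by depth.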
